A study of Danio rerio with 12 samples.

Results

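Trunk muscle of 4 zebrafish sampled 8 h after a meal that ended a fast (Refed_8h) was compared with the same muscle of 4 zebrafish sampled at the end of that 24 h fast (Fast). The libraries were chosen by their treatment labels, and they are 8 of the 12 libraries of the study. The deposited table lists 25281 genes, of which 16745 had enough counts to be tested. All fish were labelled wild type and 2 to 3 months old, with no strain given. The paper's methods differ from that age, with purchase at 3 months followed by over a month of acclimation. Each library came from the muscle of 1 fish, cut between the anus and the tail fin, and poly(A) RNA was sequenced. Females and males were taken in equal number at each time point, but the labels do not say which fish was which. The 4 fish sampled 3 h after refeeding (Refed_3h) were not part of the contrast. They entered the low-count filter, the scaling between libraries and the estimate of the spread between fish.

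All the fish were fasted for 24 h before the refeeding, so the comparison has no group that was never fasted. Refed_8h fish were also sampled 8 h later than Fast fish, and no fish was fasted up to that hour. Time of day, a longer stay in the small tank and the meal therefore cannot be told apart. The fish shared tanks, and the p-values measure the spread between fish of a group.

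Skeletal muscle is the largest store of protein in a fish, and feeding state changes how much of it is built and broken down. Muscle cells also hold a circadian clock, a loop in which Clock and Bmal (Arntl) proteins switch on the genes of their own repressors, the Period and Cryptochrome proteins. Zebrafish tissues are known for clocks that respond directly to light. Sterol synthesis is held in check by sterols themselves, through the Srebp transcription factors that drive the genes of the pathway when sterols are scarce.

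The 8 libraries held 11929140 to 18446239 counts in genes, and 10.7 to 15.8% of the counts came from mitochondrial DNA. Markers of fast muscle summed to 89387 to 113375 TPM (the authors' unit of transcript level, scaled by gene length and depth) in Fast fish and to 98757 to 127588 TPM in Refed_8h fish, and none of those markers was at 0. Markers of skin epithelium were present in every library. They summed to 21766 to 26524 TPM in Fast fish and to 13511 to 25291 TPM in Refed_8h fish. On counts scaled by the TMM method the skin sums did not overlap, at 21144 to 27222 CPM (counts scaled by depth) in Fast fish and 14101 to 20540 CPM in Refed_8h fish. Of the 15 skin markers, 4 lay above 0 on the log2 fold change scale, 0 passed the test and none was at 0, and their median log2 fold change was -0.59. In the edgeR test described below, 8 of the 15 had an unadjusted p under 0.05, against 2169 of all 16745 tested genes. For 3 of the 15 every Refed_8h fish lay below every Fast fish in CPM, and for 0 above, against 642 and 604 of all tested genes. Skin marker RNA thus tended to be lower in Refed_8h, and whether skin content differed was not tested. The model was therefore also run with a skin marker score as a covariate. That score is the mean log2 CPM of those markers, centred over all libraries. It overlapped between the groups, at -0.0197 to 0.715 in Fast fish and -0.849 to 0.279 in Refed_8h fish. Where a named gene lost its call with that covariate, the adjusted p is given beside it as the skin-adjusted p. Where a named gene lost its call in at least 1 of the 8 fits that each left out 1 library, the highest adjusted p of those fits is given as the left-out adjusted p.

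In Refed_8h vs. Fast, 165 of the 16745 genes were DEGs (0.985%), that is, genes with an adjusted p under 0.05 and a change of at least 2-fold. The test was edgeR's quasi-likelihood test with Benjamini-Hochberg adjustment over all tested genes, and every adjusted p below comes from it. Of the DEGs, 63 were higher in Refed_8h (0.376% of tested genes) and 102 were lower (0.609%). Without the fold threshold, 234 genes passed (1.4%), of which 91 were higher (0.543%) and 143 lower (0.854%). An unadjusted p under 0.05 in the same test was found for 2169 of the 16745 genes. The median fold of the DEGs was 3.12, with a highest value of 58.3 among the higher and 101.0 among the lower DEGs. Fast and Refed_8h fish did not overlap in CPM for 162 of the 165 DEGs, against 1246 of all tested genes (7.44%). With another tool, DESeq2, 324 DEGs were called.

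**Figure D1:**
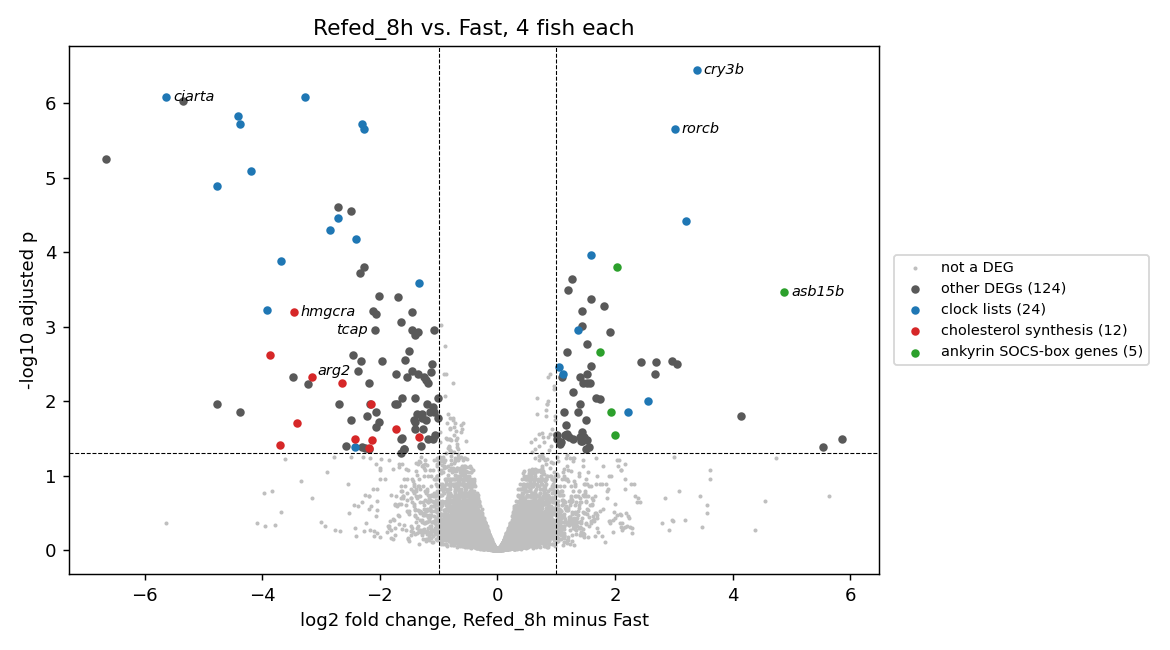
Log2 fold change of Refed_8h minus Fast (x axis) against -log10 of the adjusted p (y axis) for the 16745 tested genes, 1 point per gene. Light grey points are genes that were not DEGs, some of which passed 1 of the 2 thresholds. Colours mark the DEGs of the clock lists, cholesterol synthesis and ankyrin SOCS-box genes, and dark grey marks the other DEGs. Dashed lines mark an adjusted p of 0.05 and a 2-fold change. Clock genes hold most of the highest points, and the cholesterol genes lie on the lower side only.

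Of 24 tested genes on a list of clock repressors and output genes, 13 passed the test lower and 6 higher in Refed_8h. Of 15 on a list of clock activators and their partners, 3 passed lower and 3 higher. Over all tested genes, 0.854% passed lower and 0.543% higher. The median log2 fold change was -1.96 for the first list and 0.29 for the second, beside 0.00 for all tested genes. With the skin score as a covariate the first list had 12 lower and 5 higher, and the second 3 lower and 2 higher. Clock genes made up 16 of the 20 DEGs with the smallest p. Of the 24 clock DEGs (15 lower and 9 higher), 21 passed under each of the 17 other settings tried; nr1d4b, arntl2 and ciartb did not. For ciartb, a paralog of ciarta, the adjusted p of 0.041 became 0.07 with the skin score and reached 0.12 with 1 library left out.

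The largest fall of a clock gene was that of ciarta, a repressor of the Clock and Bmal pair (GRCz11 chromosome 19, 8928434 to 8940068, minus strand). It stood at 38.6, 25.3, 29.5 and 22.3 TPM in Fast replicates 1 to 4 and at 0.796, 0.427, 0.41 and 0.515 TPM in Refed_8h replicates 1 to 4. Every Fast fish was far above every Refed_8h fish, with a log2 fold change of -5.63 (SE 0.32, adjusted p = 8.4e-07). The Period gene per1a (chromosome 10, 22809715 to 22831611, minus strand) stood at 7.27, 4.57, 9.14 and 4.97 TPM in Fast fish and at 0.355, 0.208, 0.175 and 0.147 TPM in Refed_8h fish. Its relatives moved likewise, with log2 fold changes of -4.40 (SE 0.28, adjusted p = 1.5e-06) for per3 and -4.19 (SE 0.32, adjusted p = 8.2e-06) for per1b. The remaining Period gene tested, per2, is known in zebrafish as a light-induced gene. It had a log2 fold change of 0.01 (SE 0.16, adjusted p = 0.98), and its fish overlapped, at 3.86 to 5.95 TPM in Fast and 4.02 to 6.34 TPM in Refed_8h.

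Genes of the Rev-erb receptors, which repress Bmal genes, fell as well. For nr1d1, Fast fish stood at 44.2, 31.7, 27.6 and 30.6 TPM and Refed_8h fish at 1.58, 1.08, 1.69 and 1.64 TPM, a log2 fold change of -4.37 (SE 0.29, adjusted p = 1.9e-06). For nr1d2b the values were 72, 43.1, 54.4 and 50 TPM against 10.2, 10.2, 8.89 and 11.3 TPM. The values of both genes were tight among the Refed_8h fish and far below the lowest Fast fish. The paralog nr1d4b went the other way, at 0.254 to 1.58 TPM in Fast and 2.67 to 5.33 TPM in Refed_8h (log2 fold change 2.56, SE 0.45, adjusted p = 0.01; skin-adjusted p = 0.071).

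Genes for the basic helix-loop-helix repressors bhlhe40 and bhlhe41 fell too. The level of bhlhe40 was 167, 128, 141 and 158 TPM in Fast fish and 25.5, 36.5, 16.1 and 24.6 TPM in Refed_8h fish (log2 fold change -2.40, SE 0.23, adjusted p = 6.7e-05). For bhlhe41 the 2 groups spanned 22 to 29.6 TPM and 3.82 to 5.74 TPM. Genes for Clock-interacting repressors cipca and cipcb fell (log2 fold changes of -3.92 and -3.27), and the D-box activators dbpa and dbpb fell (log2 fold changes of -3.68 and -2.85).

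The Cryptochrome genes split by paralog. For cry3b (chromosome 22, 786556 to 809282, plus strand), Fast fish stood at 3.86, 2.89, 3.85 and 2.44 TPM and Refed_8h fish at 35.3, 21.9, 35.5 and 34.6 TPM. This was the DEG with the smallest adjusted p (log2 fold change 3.39, SE 0.17, adjusted p = 3.6e-07). The paralog cry3a rose from 20.7 to 29.9 TPM in Fast fish to 50.6 to 79.9 TPM in Refed_8h fish, and cry4, which lies 10374 bases from cry3b, rose by 1.05 on the log2 scale. In contrast, cry2 was at 8.18 to 16.8 TPM in Fast fish and 1.71 to 2.44 TPM in Refed_8h fish (log2 fold change -2.71, SE 0.24, adjusted p = 3.5e-05). The change of cry1a was smaller, at -0.90 (SE 0.12, adjusted p = 0.0018), below 2-fold.

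Genes for a Ror receptor, for Nfil3 repressors and for Bmal proteins were higher in Refed_8h. The Ror receptor gene rorcb stood at 2.25, 1.43, 2.26 and 1.13 TPM in Fast fish and 12.7, 12.7, 14.1 and 12.4 TPM in Refed_8h fish (log2 fold change 3.01, SE 0.20, adjusted p = 2.2e-06). The D-box repressor gene nfil3-5 stood at 6.4, 3.16, 5.66 and 2.22 TPM against 36.3, 33.8, 43.0 and 32.2 TPM (log2 fold change 3.21, SE 0.29, adjusted p = 3.8e-05), and its paralog nfil3 rose by 1.38. No Refed_8h fish overlapped a Fast fish for any of these 3 genes, as was so for 162 of the 165 DEGs. The Bmal genes arntl1a and arntl2 rose (log2 fold changes of 1.11 and 2.22; for arntl2, skin-adjusted p = 0.063, left-out adjusted p = 0.053 without Fast replicate 2). The fitted changes of the Clock genes clocka (0.98, adjusted p = 0.3) and clockb (0.29, adjusted p = 0.8) did not pass. Another Ror gene, rorab, fell by 1.34 (adjusted p = 0.00026).

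In Refed_3h fish, sampled between the other time points, the mean TPM of these genes was 2.87 for ciarta, 0.211 for per1a, 1.56 for nr1d1, 98.3 for bhlhe40, 15.4 for cry3b and 3.33 for rorcb. For all of these but per1a, that mean lay between those of Fast and Refed_8h. Among the other clock DEGs, it lay below both for nr1d4b, arntl2, nfil3, dbpb and ciartb, and between them for the rest. Refed_3h stood at the Refed_8h level for per1a and nr1d1 and nearer to Fast for bhlhe40.

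**Figure D2:**
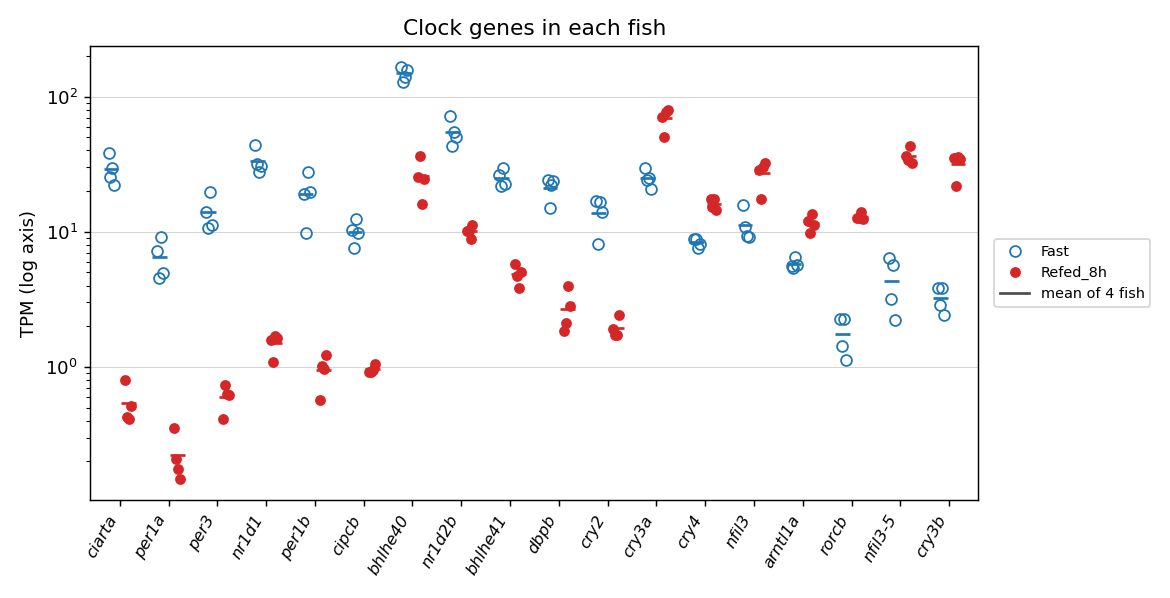
TPM (log axis) of 18 clock genes in each fish, with Fast fish as open circles, Refed_8h fish as filled circles and a short line at the mean of each group of 4. From ciarta to cry2 the filled circles lie below the open ones, and from cry3a to cry3b they lie above them, with no overlap for any gene drawn. All 18 were drawn from the DEGs, of which 162 of 165 did not overlap.

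The cholesterol synthesis genes formed the largest other group. Of 24 tested genes for the enzymes from acetyl-CoA to cholesterol, 12 were DEGs, all lower in Refed_8h, and 0 were higher. Over all tested genes, 0.609% were lower DEGs and 0.376% higher DEGs. The median log2 fold change of the 24 was -1.92. Of the 12 that were not DEGs, 10 had a fitted change below 0. The count depended on single libraries and on the skin score. It was 2 with the skin score as a covariate, 8 to 16 under the other settings with all 8 libraries, and 5 to 14 with 1 library left out. Leaving out Fast replicate 1 or any 1 of the Refed_8h replicates gave 5, and leaving out Fast replicate 4 gave 14.

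The rate-limiting enzyme of the pathway, HMG-CoA reductase, is encoded by hmgcra (chromosome 5, 50972485 to 50992775, minus strand). It stood at 14.6, 16.8, 11.3 and 6.33 TPM in Fast fish and at 1.41, 0.878, 0.701 and 1.2 TPM in Refed_8h fish (log2 fold change -3.47, SE 0.40, adjusted p = 0.00064). With sqlea, it was 1 of only 2 cholesterol genes that passed under each of the 17 other settings. The squalene epoxidase gene sqlea stood at 22, 20.2, 9.71 and 7.83 TPM in Fast fish and at 1.05, 1.22, 0.566 and 0.906 TPM in Refed_8h fish (log2 fold change -3.88, SE 0.53, adjusted p = 0.0024). The paralogs hmgcrb and sqleb did not follow them, with log2 fold changes of -0.16 (adjusted p = 0.67) and 0.63 (adjusted p = 0.85).

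The other 10 cholesterol DEGs had skin-adjusted p-values of 0.071 to 0.28. The upstream enzyme gene hmgcs1 fell by 2.65 on the log2 scale (SE 0.42, adjusted p = 0.0058; skin-adjusted p = 0.11), from 77.5, 86.7, 32.6 and 27.0 TPM to 10.3, 7.05, 7.12 and 9.15 TPM. The lanosterol demethylase gene cyp51 was among the most abundant, at 143, 113, 35.1 and 22.8 TPM in Fast fish and 8.09, 6.82, 4.83 and 7.34 TPM in Refed_8h fish (log2 fold change -3.41, SE 0.62, adjusted p = 0.02; skin-adjusted p = 0.18, left-out adjusted p = 0.075). In both genes Fast replicates 1 and 2 were well above Fast replicates 3 and 4, while the Refed_8h fish were close together and below all of them. The same held across the group. In all 12 DEGs of cholesterol synthesis, Fast replicates 1 and 2 exceeded Fast replicates 3 and 4. The ratio of the highest to the lowest fish had a median of 3.53 in Fast and 1.59 in Refed_8h. With a model term for replicates 1 and 2 against 3 and 4, 13 cholesterol synthesis genes passed.

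Of the later steps, ebp, lss, tm7sf2, nsdhl and sc5d fell (log2 fold changes of -3.70, -3.15, -2.42, -2.18 and -2.14), and of the earlier steps mvda and fdft1 fell (log2 fold changes of -1.73 and -1.33). In each of these 7 genes but lss at least 1 fit without a library lost the call, with left-out adjusted p-values of 0.083 to 0.12. The abundant genes msmo1 and hsd17b7 were not called, and the split among Fast fish was wide in both. Fast fish stood at 223, 318, 53.9 and 51.7 TPM and Refed_8h fish at 26.4, 23.6, 16.3 and 15.5 TPM for msmo1 (log2 fold change -2.89, SE 0.72, adjusted p = 0.091). For hsd17b7 the groups overlapped, at 49.8 to 486 TPM and 19.9 to 111 TPM (adjusted p = 0.41). Of 18 tested genes of sterol sensing and transport, 2 passed lower and 0 higher. These were the LDL receptor gene ldlra (log2 fold change -1.27, SE 0.25, adjusted p = 0.024; skin-adjusted p = 0.13, left-out adjusted p = 0.074) and mylipb (-1.46, SE 0.22, adjusted p = 0.0039), whose mammalian relative encodes a ligase that marks that receptor for breakdown. Of 38 genes of fatty acid synthesis and elongation, 0 passed in either direction, and 7 had an unadjusted p under 0.05. Over all 16745 tested genes, 234 passed (1.4%) and 2169 had such a p, so 0 of 38 is near the share over all genes.

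**Figure D3:**
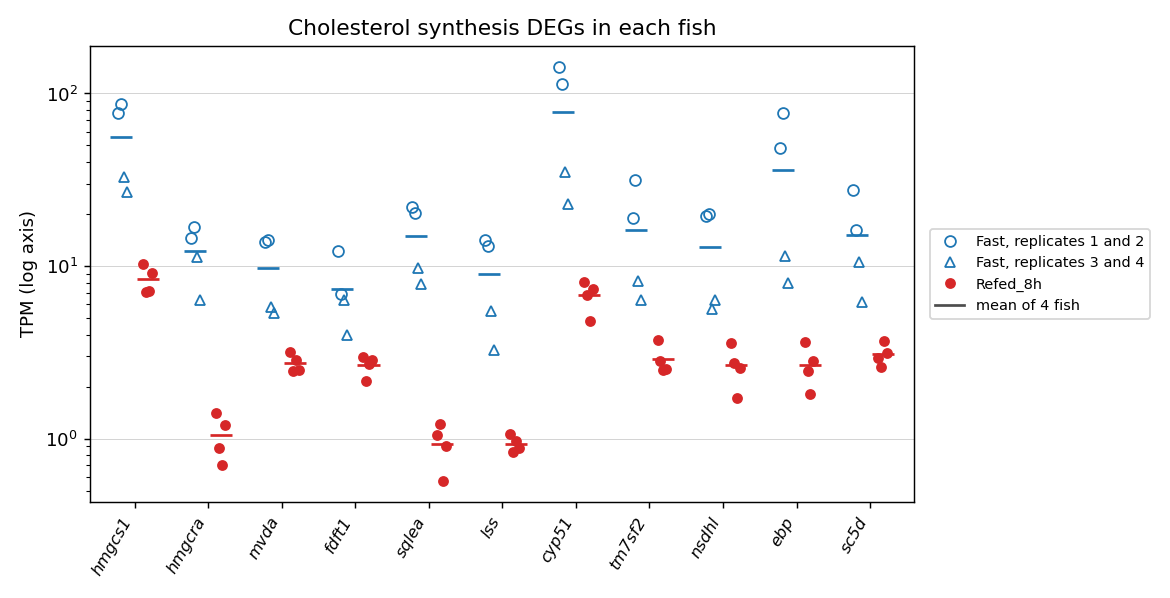
TPM (log axis) of 11 cholesterol synthesis DEGs in each fish, in pathway order, with Fast replicates 1 and 2 as open circles, Fast replicates 3 and 4 as open triangles, Refed_8h fish as filled circles and a short line at the mean of each group of 4. All filled circles lie below all open symbols, and the open circles lie above the open triangles in each gene.

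Substrate adaptors of the ankyrin SOCS-box (ASB) family recruit proteins to cullin-type ubiquitin ligases, and in mammals several are enriched in striated muscle. Of 22 tested members, 5 passed higher in Refed_8h, all of them DEGs, and 0 lower. Over all tested genes, 0.543% passed higher and 0.854% lower. The median log2 fold change of the 22 was 0.40. With the skin score as a covariate 3 of the 5 passed, those being asb15b, asb15a and asb2a.1_1, which passed under every other setting too. The gene asb15b (chromosome 4, 4120570 to 4129187, minus strand) went from 0.406, 0.24, 0.24 and 0.992 TPM in Fast fish to 14.8, 7.8, 13.9 and 18.3 TPM in Refed_8h fish. Its log2 fold change was 4.88 (SE 0.54, adjusted p = 0.00034), the largest rise of a DEG that has a gene symbol, and its mean in Refed_3h was 0.351 TPM, at the Fast level. The paralog asb15a rose from 1.42 to 2.0 TPM in Fast fish to 5.7 to 8.83 TPM in Refed_8h fish.

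The most abundant of the ASB genes was asb2a.1_2, at 19.3, 12.9, 52.7 and 43.5 TPM in Fast fish and 103, 96.9, 134 and 141 TPM in Refed_8h fish (log2 fold change 1.99, SE 0.40, adjusted p = 0.029; skin-adjusted p = 0.097, left-out adjusted p = 0.076). The deposited table gives a second gene of that symbol, asb2a.1_1, which lies 5003 bases away on chromosome 20 and rose by 1.74. How reads that match both were counted is not given in the sources used here, so their separate values are uncertain. The remaining DEG of the family, asb14b, rose by 1.94 (SE 0.35, adjusted p = 0.014; skin-adjusted p = 0.055, left-out adjusted p = 0.056). Another SOCS-box adaptor gene, spsb3b, stood at 0.134, 0.238, 0.476 and 0.695 TPM in Fast fish and at 2.13, 2.2, 8.78 and 13.8 TPM in Refed_8h fish (log2 fold change 4.14, SE 0.78, adjusted p = 0.016; skin-adjusted p = 0.063, left-out adjusted p = 0.064). Its Refed_8h fish spread widely. The lowest was above the highest Fast fish, but no overlap was also found for 162 of the 165 DEGs. The call was lost without Fast replicate 1, Fast replicate 2 or Refed_8h replicate 4.

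The gene next to asb15b, 1145 bases away on the same strand, is lmod2b, which encodes a leiomodin that builds actin filaments of the sarcomere. It rose as well, from 9.18, 9.97, 4.65 and 8.52 TPM to 16.2, 18.4, 24.8 and 23.2 TPM (log2 fold change 1.46, SE 0.24, adjusted p = 0.0057; skin-adjusted p = 0.058). In Refed_3h its mean was 2.06 TPM, below both groups. Among 129 tested sarcomere genes, lmod2b was the only one that passed higher, and 4 passed lower. With the skin score as a covariate 0 passed higher and 4 lower. Over all tested genes, 0.543% passed higher and 0.854% lower, so 1 higher of 129 is near the share over all genes. The median log2 fold change of the sarcomere list was 0.08. The largest fall among the 4 was that of tcap (chromosome 3, 21240594 to 21242460, minus strand), the gene for telethonin of the Z-disc, at 638, 1076, 750 and 751 TPM in Fast fish and 125, 214, 179 and 192 TPM in Refed_8h fish (log2 fold change -2.08, SE 0.27, adjusted p = 0.0011). The actin-binding Xin gene xirp1 fell by 1.45 (adjusted p = 0.0011), smtnl by 1.21 (adjusted p = 0.0053) and the actinin gene actn1, whose change was below 2-fold, by 0.92 (adjusted p = 0.0044). Abundant genes of the contractile apparatus did not pass, such as actc1b (log2 fold change 0.34, SE 0.18, adjusted p = 0.47).

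Some chaperone genes, which help proteins to fold and rise with heat in many tissues, were lower in Refed_8h. The co-chaperone gene bag3 stood at 36.3, 34.8, 31.2 and 34.0 TPM in Fast fish and at 11.0, 11.5, 14.1 and 12.7 TPM in Refed_8h fish, with little spread in either group (log2 fold change -1.35, SE 0.18, adjusted p = 0.0012). Of 31 genes of the HSP70 and J-protein list, 4 passed lower and 0 higher, those being hsp70l, bag3, dnaja1 and dnajb4. The skin-adjusted p was 0.1 for hsp70l and 0.09 for dnaja1, and the left-out adjusted p was 0.069 for hsp70l, 0.092 for dnaja1 and 0.11 for dnajb4. The number was 2 with the skin score as a covariate and 1 to 3 with 1 library left out. Of 10 small heat shock protein genes, hspb6 and hspb11 passed lower (for hspb11, adjusted p = 0.032; skin-adjusted p = 0.16, left-out adjusted p = 0.1). With the skin score as a covariate neither kept its call, and 1 other member of the list passed lower. The level of hspb6 was 148, 252, 283 and 172 TPM in Fast fish and 30.4, 43.8, 61.2 and 55.8 TPM in Refed_8h fish (log2 fold change -2.06, SE 0.40, adjusted p = 0.022; skin-adjusted p = 0.11, left-out adjusted p = 0.074). The genes of the HSP90 and myosin-folding list (18 tested) and of the chaperonin CCT (7 tested) gave 0 calls, with 4 and 0 genes at an unadjusted p under 0.05. Over all 16745 tested genes, 234 passed (1.4%), with 0.854% lower, and 2169 had such a p. For lists of 18 and 7 genes, 0 calls are near the share over all genes. The gene for the heat shock transcription factor hsf2 fell from 16.3 to 21.4 TPM in Fast fish to 2.55 to 4.66 TPM in Refed_8h fish (log2 fold change -2.33, SE 0.25, adjusted p = 0.00019). It was singled out after its values were seen, as were nos2a, noxo1a and nox1.

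Arginase, encoded by arg2 (chromosome 13, 33024547 to 33034374, plus strand), splits arginine into urea and ornithine. Its gene stood at 98.2, 111, 121 and 151 TPM in Fast fish and at 14.3, 29.7, 27.5 and 12.5 TPM in Refed_8h fish (log2 fold change -2.38, SE 0.35, adjusted p = 0.0039). The polyamine synthesis gene amd1 fell from 61.2 to 117 TPM in Fast fish to 20.7 to 31.2 TPM in Refed_8h fish (log2 fold change -1.51, SE 0.21, adjusted p = 0.0021). Both passed under each of the 17 other settings, and they were the only members called among 15 of the arginase and polyamine list. Over all tested genes, 1.4% passed. The inducible nitric oxide synthase gene nos2a, whose enzyme also consumes arginine, stood at 93.1, 108, 169 and 191 TPM in Fast fish and at 16.8, 35.1, 21.4 and 30.5 TPM in Refed_8h fish (log2 fold change -2.32, SE 0.33, adjusted p = 0.0029). Genes for carriers of cationic amino acids, slc7a3b and slc7a2, fell (log2 fold changes of -1.45 and -0.69, adjusted p = 0.00064 and 0.031; for slc7a2, skin-adjusted p = 0.091, left-out adjusted p = 0.096). Genes for subunits of a superoxide-making NADPH oxidase, noxo1a and nox1, fell (log2 fold changes of -2.48 and -1.29, adjusted p = 2.8e-05 and 0.017; for nox1, skin-adjusted p = 0.11, left-out adjusted p = 0.063).

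The calls among the amino acid genes below stand beside 0.543% of all tested genes that passed higher and 0.854% that passed lower. Of 16 genes of the methionine cycle, mat2ab and mat2aa passed lower, and 0 passed higher. With the skin score as a covariate 0 passed, and 0 to 2 did with 1 library left out (mat2aa, adjusted p = 0.022; skin-adjusted p = 0.14, left-out adjusted p = 0.077). Both encode the enzyme that makes S-adenosylmethionine, the substrate of Amd1. For mat2ab, Fast fish stood at 74.4, 16.2, 25.1 and 16.4 TPM and Refed_8h fish at 2.11, 1.26, 0.424 and 1.86 TPM (log2 fold change -4.37, SE 0.74, adjusted p = 0.014; skin-adjusted p = 0.097, left-out adjusted p = 0.055). Fast replicate 1 was far above the others. Every Fast fish exceeded every Refed_8h fish, but no overlap was also found for 162 of the 165 DEGs. Among 37 genes of amino acid breakdown, 2 passed lower. These were the threonine dehydrogenase gene tdh, at 159 to 261 TPM against 46.0 to 92.4 TPM (log2 fold change -1.53, SE 0.24, adjusted p = 0.0048), and the tyrosine aminotransferase gene tat (-1.74, SE 0.31, adjusted p = 0.011; 0.055 in a fit of only the 8 libraries). The gene slc38a2, for a carrier of neutral amino acids, was the only member of 33 on the amino acid transporter list that passed higher (0.92, SE 0.20, adjusted p = 0.04; skin-adjusted p = 0.19, left-out adjusted p = 0.11), at 33.6 to 55.3 TPM in Fast fish and 65.3 to 76.4 TPM in Refed_8h fish.

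**Figure D4:**
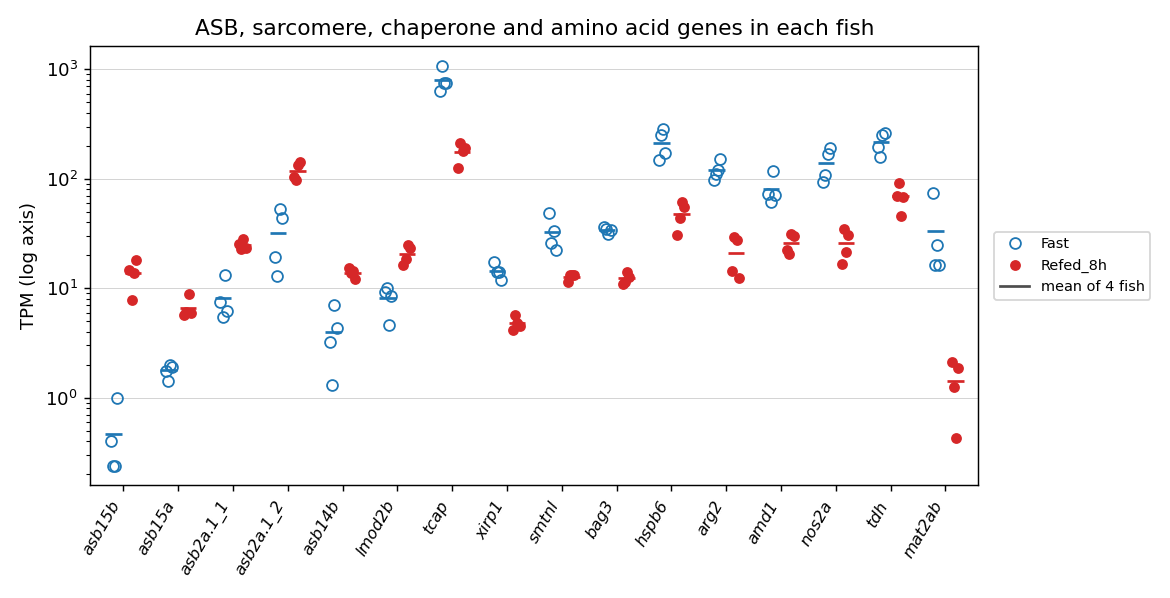
TPM (log axis) of 16 genes of the ASB family, sarcomere, chaperones and amino acid use in each fish, with Fast fish as open circles, Refed_8h fish as filled circles and a short line at the mean of each group of 4. The filled circles lie above the open ones for the ASB genes and lmod2b and below them for the remaining genes, from tcap to mat2ab.

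The calls among fuel genes stand beside 234 of all 16745 tested genes (1.4%) that passed. The gene slc16a3, for a lactate exporter, was the only one of 43 tested genes of glycogen, glucose and lactate that passed. It stood at 16.6, 18.1, 19.0 and 13.4 TPM in Fast fish and at 28.9, 28.1, 40.3 and 39.2 TPM in Refed_8h fish (log2 fold change 1.13, SE 0.21, adjusted p = 0.014; skin-adjusted p = 0.097, left-out adjusted p = 0.055). The mean in Refed_3h was 55.8 TPM, above both. Of 40 tested glycolysis genes, 2 passed lower and 0 higher. Of these, hk1 fell by less than 2-fold (log2 fold change -0.79, adjusted p = 0.033; left-out adjusted p = 0.11). Of 36 genes of fatty acid oxidation, cpt1b, whose product lets long-chain fatty acids into mitochondria, passed lower, from 10.3 to 28.7 TPM in Fast fish to 3.9 to 6.3 TPM in Refed_8h fish (log2 fold change -1.62, SE 0.33, adjusted p = 0.031; skin-adjusted p = 0.23, left-out adjusted p = 0.096). Of 23 tested genes of lipid uptake and lipolysis, 2 passed higher and 1 lower. With the skin score as a covariate 0 passed higher and 1 lower. Of the 2 higher, g0s2, whose mammalian product inhibits the main triglyceride lipase, rose by 1.48 (SE 0.30, adjusted p = 0.03; skin-adjusted p = 0.18, left-out adjusted p = 0.087). Of 102 nuclear genes of oxidative phosphorylation, cox4i2 alone passed (0.76, SE 0.15, adjusted p = 0.027; skin-adjusted p = 0.12, left-out adjusted p = 0.086). None of the 13 genes of mitochondrial DNA did, and 0 of those had an unadjusted p under 0.05.

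Pyruvate dehydrogenase links glycolysis to the mitochondria, and its kinases switch it off. Of 13 tested genes for its subunits, kinases and phosphatases, 0 passed, and 3 had an unadjusted p under 0.05. Over all 16745 tested genes, 234 passed (1.4%) and 2169 had such a p, so 0 of 13 is near the share over all genes. The kinase gene pdk2b stood at 71.7, 250, 218 and 39.1 TPM in Fast fish and at 10.3, 4.49, 4.59 and 28.2 TPM in Refed_8h fish. The groups did not overlap, but the spread was wide in both, and the log2 fold change of -3.61 (SE 0.80) had an adjusted p of 0.06. The phosphatase gene pdp1, which was singled out after its values were seen, had a log2 fold change of 2.05 (SE 0.49, adjusted p = 0.075), with no overlap, at 2.54 to 16.6 TPM and 19.1 to 46.8 TPM.

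Of 24 tested genes of muscle ubiquitin ligases, which include those known for their part in atrophy, 0 were called in either direction. Over all tested genes 234 of 16745 passed (1.4%), so 0 of 24 is near the share over all genes. Of the 24, 3 had an unadjusted p under 0.05, and the median log2 fold change was 0.04. The atrogin-1 gene fbxo32 stood at 15.5, 64.9, 64.6 and 48.5 TPM in Fast fish and at 30.6, 11.0, 42.0 and 113 TPM in Refed_8h fish (log2 fold change 0.02, SE 0.60, adjusted p = 0.99). For trim63a, which encodes a MuRF1 protein, the values were 53.2, 72.9, 317 and 178 TPM against 87.0, 136, 280 and 224 TPM (log2 fold change 0.34, SE 0.57, adjusted p = 0.86). Fish of a group differed from each other more than the groups did. The mean of fbxo32 in Refed_3h was 1.37 TPM, and that of trim63a was 58.8 TPM. The fitted changes of fbxo25, pdk2a and klf11b, at -0.38, -0.59 and -0.29, had adjusted p-values of 0.54, 0.45 and 0.63, and that of the autophagy gene ulk2, at -1.27, had 0.072. Those of ptgr1, pvalb2, mid1ip1l and tecra, at 2.38, 1.18, 1.40 and 1.17, had adjusted p-values of 0.23, 0.27, 0.1 and 0.058. For ptgr1, Refed_8h replicate 3 stood at 5.65 TPM, at the Fast level of 5.53 to 6.69 TPM, while the other Refed_8h fish stood at 31.8 to 43.5 TPM.

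Lists of the growth and protein turnover machinery gave 0 calls in insulin and FoxO signalling (26 tested), IGF ligands and binding proteins (12), mTORC1 restraint (13), autophagy (41), lysosome (34), proteasome subunits (43), cytosolic ribosomal proteins (86), translation factors (75), ribosome biogenesis (72), cell cycle and DNA replication (56) and myogenic regulators (30). At an unadjusted p under 0.05 these lists held 4, 3, 4, 1, 6, 2, 1, 5, 24, 4 and 6 genes, in that order. Of all 16745 tested genes, 2169 had such a p and 234 (1.4%) passed the test. In ribosome biogenesis the fitted change was above 0 in 8 of 72 genes, against 8436 of all 16745 tested genes. The median of that list was -0.28. The most abundant of its genes, ncl for nucleolin, stood at 89.0 to 112 TPM in Fast fish and 64.1 to 82.1 TPM in Refed_8h fish (log2 fold change -0.37, SE 0.13, adjusted p = 0.21). The myogenic genes myog, myod1 and six1b had log2 fold changes of 0.55, -0.35 and 0.07 (adjusted p = 0.63, 0.79 and 0.93). The myostatin gene mstnb, whose product restrains muscle growth, passed higher by less than 2-fold (0.89, SE 0.18, adjusted p = 0.028; skin-adjusted p = 0.14, left-out adjusted p = 0.087), at 20.9 to 37.5 TPM in Fast fish and 44.4 to 52.6 TPM in Refed_8h fish. In total, 28 of the 55 process lists had no member past the test, and none of the 14 marker lists had one.

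**Figure D5:**
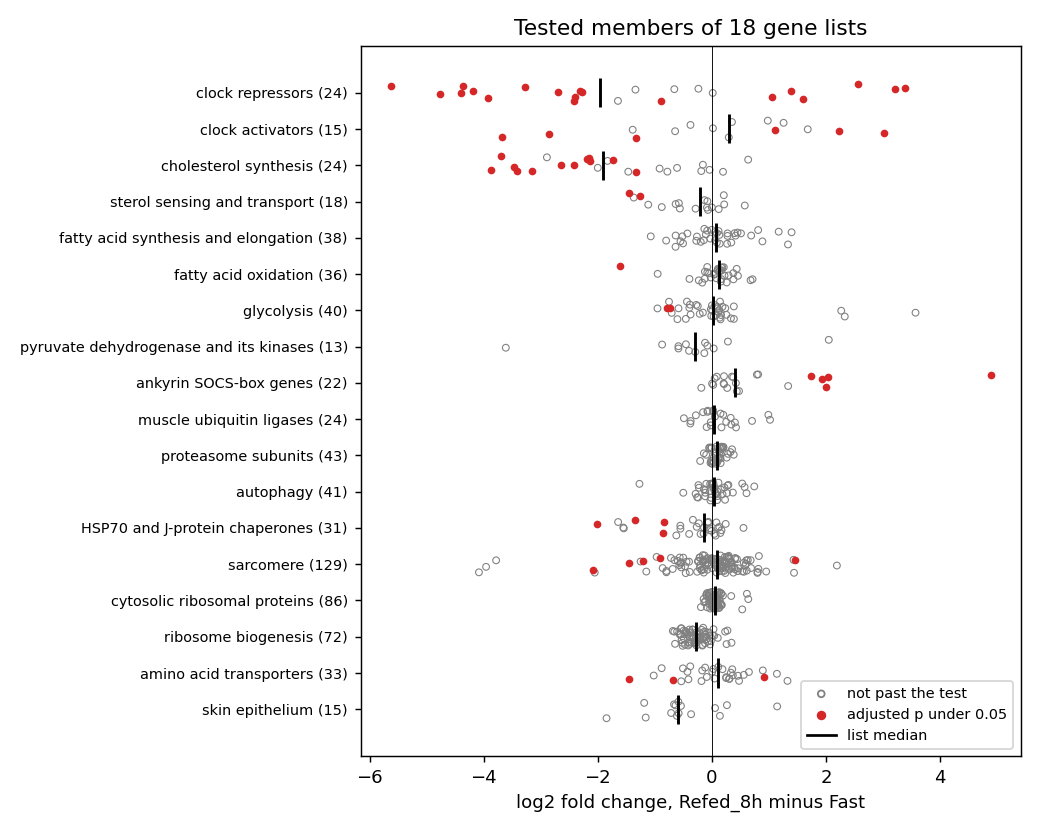
Log2 fold change of Refed_8h minus Fast (x axis) of each tested member of 18 gene lists (rows, with the number tested), 1 point per gene; filled points passed the test at an adjusted p of 0.05, open points did not, and a vertical bar marks each list's median. The clock repressors and cholesterol synthesis genes have medians near -2, and the medians of the muscle ubiquitin ligases, proteasome, ribosomal protein and sarcomere lists lie within 0.1 of 0.

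Growth-arrest and stress genes were each called singly. The gene cdkn1a, for the cell cycle inhibitor p21, rose from 3.32, 1.99, 2.07 and 2.35 TPM to 8.16, 4.36, 5.83 and 7.71 TPM (log2 fold change 1.51, SE 0.29, adjusted p = 0.018), while its mean in Refed_3h was 0.898 TPM. It was the only gene called of 29 tested on a list of p53 targets and growth arrest, beside 1.4% of all tested genes. Its call was lost under 4 of the 17 other settings, at an adjusted p of up to 0.091 (left-out adjusted p = 0.064). The stress gene nupr1a rose by 1.09 (adjusted p = 0.0048), at 18.9 to 28.7 TPM in Fast fish, 37.2 to 55.1 TPM in Refed_8h fish and a mean of 7.99 TPM in Refed_3h. The mitochondrial folate carrier gene slc25a32a rose by 1.52 (adjusted p = 0.0017) with a mean of 2.14 TPM in Refed_3h, and the guanine nucleotide synthesis gene impdh1b by 1.19 (adjusted p = 0.0022). For cyp1a, a target of the aryl hydrocarbon receptor, the rise was 1.52 (adjusted p = 0.0044) at low levels, from 1.14 to 2.23 TPM to 2.8 to 5.15 TPM. Of 34 oxidative stress genes, coq10b alone passed, lower, at 73.8 to 117 TPM in Fast fish and 14.9 to 28.5 TPM in Refed_8h fish (log2 fold change -2.12, SE 0.26, adjusted p = 0.00062).

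Of the DEGs, 98 belonged to none of the lists. The largest changes among those with a gene symbol and at least 5 TPM were, on the higher side, spsb3b, mettl11b and sbk3, and on the lower side, abcb5 and znf395b. The kinase gene sbk3 rose from 0.783 to 3.37 TPM in Fast fish to 7.0 to 17.3 TPM in Refed_8h fish (log2 fold change 2.96, SE 0.43, adjusted p = 0.0029), and mettl11b, for an N-terminal methyltransferase, by 3.05 (SE 0.45, adjusted p = 0.0032). The phosphatase gene ctdsp1 rose from 35.2, 20.5, 25.3 and 24.9 TPM to 74.3, 86.2, 80.6 and 97.8 TPM (log2 fold change 1.81, SE 0.21, adjusted p = 0.00053). The transporter gene abcb5 stood at 16.4 to 59.8 TPM in Fast fish and 1.16 to 5.68 TPM in Refed_8h fish (log2 fold change -3.23, SE 0.50, adjusted p = 0.0059; skin-adjusted p = 0.074), and znf395b fell by 2.71 (adjusted p = 2.5e-05).

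Several more DEGs outside the lists were singled out after their values were seen. The RNA-binding protein gene fus rose from 8.86 to 13.7 TPM to 22.6 to 31.5 TPM (log2 fold change 1.27, SE 0.14, adjusted p = 0.00023), and 2 genes for kinases of splicing factors, clk2b and srpk3, rose (log2 fold changes of 1.02 and 1.16, adjusted p = 0.029 for each; skin-adjusted p = 0.11 for each, left-out adjusted p = 0.092 and 0.086). The genes ypel3 and mxd3, the latter for an antagonist of Myc, rose (log2 fold changes of 1.2 and 1.44, adjusted p = 0.00032 and 0.00098). Of genes that fell, slc25a33, for a mitochondrial carrier of pyrimidine nucleotides, went from 48.6 to 73.1 TPM in Fast fish to 6.95 to 16.6 TPM in Refed_8h fish (log2 fold change -2.26, SE 0.23, adjusted p = 0.00016). The gene dio2, whose enzyme makes active thyroid hormone, fell by 2.45 (adjusted p = 0.0024), and nmrk2, for a muscle kinase of nicotinamide riboside, by 1.70 (adjusted p = 0.011; skin-adjusted p = 0.11). The genes cry-dash and ddb2 fell (log2 fold changes of -1.57 and -1.14, adjusted p = 0.0028 and 0.014; for ddb2, skin-adjusted p = 0.12, left-out adjusted p = 0.053).

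Of the DEGs, 21 had only a clone-based name. The lowest of all was si:dkey-18a10.3 (chromosome 10, 33561567 to 33572441, minus strand), at 9.97, 3.97, 10.9 and 8.77 TPM in Fast fish and 0, 0.0875, 0.0923 and 0.0774 TPM in Refed_8h fish (log2 fold change -6.66, SE 0.49, adjusted p = 5.6e-06). The clone-named gene si:ch211-132b12.7 fell by 5.34 (SE 0.32, adjusted p = 9.3e-07), from 18.2 to 33.7 TPM to 0.421 to 0.699 TPM. The largest fitted rises, of si:ch211-153b23.3 and si:dkey-234i14.15, were of genes with 0 to 2 counts in each Fast fish, and the Refed_8h fish were uneven. The first stood at 6.95 TPM in Refed_8h replicate 1 and at 0.22 to 1.13 TPM in the others. The second stood at 8.16, 18.1, 0 and 12.2 TPM in Refed_8h replicates 1 to 4 and at 0 in 2 Fast fish. Neither gene was tested in the fit of only the 8 libraries. Their adjusted p-values of 0.032 and 0.041 reached 0.24 and 0.27 under other settings, with left-out adjusted p-values of 0.1 and 0.11 and, for si:dkey-234i14.15, a skin-adjusted p of 0.13.

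Genes that share a place on the genome can share reads. The deposited table places another gene over 23 of the 165 DEGs, among the named ones nmrk2, nupr1a, tdh, cpt1b, hspb6, lss, abcb5, ddb2 and the asb2a.1 genes, and whether the counting used strand is not given in the sources used here. None of those overlapping genes was itself called, and some were not tested. Of the DEGs, 7 pairs lay within 100000 bases of each other. Overlaps and pairs were not counted over all tested genes, so whether DEGs differ from other genes in this was not tested.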

How the data were processed

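Poly(A) libraries from the trunk muscle of 12 fish were sequenced, and the authors mapped the reads to GRCz11 in CLC Genomics Workbench. Which annotation release and strand setting they used, and how they counted reads with several matches, is not given in the sources used here. For each fish the authors deposited raw counts, which are whole numbers, and TPM, which are relative to gene length and library total. Another 24 columns of values per fish (RPKM and CPM) and the 18 columns of the authors' own comparisons (fold changes and p-values) were not used. Columns were matched to fish by name.

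The test ran on the counts with edgeR 4.0.16 in R 4.3.3 (filterByExpr, TMM, robust glmQLFit and glmQLFTest) in 1 model of the 3 groups, with the contrast Refed_8h minus Fast and Benjamini-Hochberg adjustment over 16745 genes. The step was tested on simulated data. SE is the size of the log2 fold change over the square root of F, TPM gives the level in each fish, and overlap was judged on CPM. The biological coefficient of variation was 30.6%. Alternatives used DESeq2 1.42.0, limma 3.58.1 on log2(TPM + 1) and log2(TPM + 0.1) for genes with a mean of at least 0.5 TPM, RLE size factors, no filter, only the 8 libraries, a replicate block, a term for replicates 1 and 2 against 3 and 4, a skin marker score as a covariate and each library left out. They gave 17 other settings in all.

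The comparison, the 55 process lists and the 14 marker lists were chosen with earlier results of these data known, so none of them is independent evidence. Genes were named where they were among the 20 higher or 20 lower DEGs of largest change with at least 5 TPM and no overlap, DEGs on a list, the most abundant member of a list or up to 4 of its members past the test, named in the paper, near the fold threshold or clone-named DEGs. Not all genes taken by that rule are printed. Named outside it, after their values were seen, were actn1, clocka, clockb, cry1a, per2, hmgcrb, sqleb, msmo1, cry-dash, ddb2, dio2, fus, hsf2, mxd3, nmrk2, nos2a, nox1, noxo1a, pdp1, slc25a33, srpk3 and ypel3. Symbols are those of the deposited table, and a gene name table held 23499 of its IDs. No promoter sequences were used here, so promoter motifs were not searched.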

Additional observations from a re-analysis of the deposited data

Results flagged for a closer look

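In 14 of 252 groups of 4 values checked (5.56%), 1 fish stood apart from the rest of its group, and chance gives about 1 in 20. Refed_8h replicate 4 had the deepest library, at 18446239 counts against 15211830 to 15495149 in the other Refed_8h fish.

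Among genes that were higher in Refed_8h, cry3b stood at 21.9 TPM in Refed_8h replicate 2 against 34.6 to 35.5 TPM in the others, asb15a at 8.83 TPM in replicate 3 against 5.7 to 6.02 TPM, mxd3 at 15.3 TPM in replicate 1 against 13.5 to 13.8 TPM, and si:ch211-153b23.3 at 6.95 TPM in replicate 1 against 0.22 to 1.13 TPM. Among genes that were lower in Refed_8h, hspb11 stood at 104 TPM in replicate 2 against 48.0 to 55.7 TPM, mylipb at 4.9 TPM in replicate 1 against 2.36 to 2.45 TPM, noxo1a at 1.13 TPM in replicate 3 against 1.91 to 1.96 TPM, smtnl at 11.4 TPM in replicate 1 against 13.1 to 13.2 TPM, and si:dkey-18a10.3 at 0 in replicate 1 against 0.0774 to 0.0923 TPM. The uncalled gene pvalb2 stood at 3648 TPM in Refed_8h replicate 4 against 1945 to 2206 TPM.

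In Fast fish, mat2ab stood at 74.4 TPM in replicate 1 against 16.2 to 25.1 TPM, slc25a33 at 73.1 TPM in replicate 3 against 48.6 to 51.5 TPM, and hmgcrb at 8.25 TPM in replicate 2 against 10.5 to 10.7 TPM. On CPM, hspb11 overlapped between the groups.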

How the results depend on the processing

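Of the 165 DEGs, 81 passed the test under each of the 17 other settings (29 higher and 52 lower), and 95 were DEGs whichever library was left out. A change of sign was looked for only in the 123 genes printed. DESeq2 called more, with 324 DEGs (136 higher and 188 lower) and 655 genes at an adjusted p under 0.05 against 234. With the skin score as a covariate, 145 genes passed, and 71 of the 165 DEGs were lost, 14 of them under that setting alone. Leaving out 1 library gave 124 to 176 DEGs (42 to 71 higher and 79 to 107 lower) and 152 to 230 genes past the test. The counts of all DEGs and of higher DEGs were lowest without Fast replicate 1. That of lower DEGs was lowest without Refed_8h replicate 4. The cause of these shifts was not tested. On log2(TPM + 1) and log2(TPM + 0.1) the median over all genes moved to -0.08 and -0.10.

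Replicate numbers were not taken as a pairing, since the labels tie them to no shared source. The correlations of the same-numbered pairs were 0.259, 0.254, 0.27 and 0.0406. Fast replicates 1 to 3 each correlated best with the Refed_8h fish of their own number, and Fast replicate 4 with Refed_8h replicate 3 (0.121). Fast replicates 1 and 2 correlated at -0.127 to 0.259 with Refed_8h replicates 1 and 2, and at -0.248 to -0.011 with 3 and 4. Fast replicates 3 and 4 correlated at 0.0406 to 0.27 with Refed_8h replicates 3 and 4, and at -0.279 to 0.0127 with 1 and 2. Replicates 1 and 2 thus tended to differ from 3 and 4 alike in both groups. What they share was not tested, and the main model has no term for it. With the replicate block, 179 DEGs were called, and with a term for replicates 1 and 2 against 3 and 4, 212.

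Of the 123 genes printed, 42 called genes lost their call under at least 1 setting (37 with the skin score, 23 with only the 8 libraries and 35 with at least 1 library left out, from 11 without Fast replicate 3 to 28 without Fast replicate 1), 6 uncalled genes gained one, and 8 uncalled genes changed sign. With 1 library left out, fbxo32 ranged from -0.73 to 0.34, klf11b from -0.39 to 0.05, myod1 from -0.65 to 0.18, clockb from -0.02 to 0.50, per2 from -0.10 to 0.11, six1b from -0.03 to 0.31 and sqleb from -0.15 to 1.23. With the skin covariate, myod1 was at 0.01, six1b at -0.12 and trim63a at -0.38. With the term for replicates 1 and 2 against 3 and 4, fbxo32 was at -0.17. On log2(TPM + 1) and log2(TPM + 0.1), fbxo32 was at -0.23 and -0.24, per2 at -0.07 and -0.08, and six1b at -0.01 and -0.01.

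Precision differed between genes. The SE of the log2 fold change was 0.60 for fbxo32, for which a 2-fold change in either direction lay within 2 SE of the fitted value.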
